A study of Homo sapiens with 8 samples.

Results

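The genes described here encode the fibrous and sheet-forming proteins of the extracellular matrix and the integrins that bind them. They were measured by RNA sequencing of 8 libraries in 2 groups of the line 22Rv1, derived from a human prostate carcinoma that had relapsed after castration in a mouse xenograft. The 4 MARK3i libraries came from cells given PCC0208017, named by the submitters as a MARK3 inhibitor. The 4 control libraries came from cells given the solvent DMSO. The labels name no genetic change for either group, and the sources used here give neither dose nor duration. The labels do not say whether replicates were separate cultures, so p-values set group differences against the spread between these libraries, which may be technical.

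Membership was set by name and by level. Protein-coding genes with collagen, laminin or integrin symbols, or named TNC, FN1, LUM, THBS1, SPARC, HSPG2, AGRN or NID1, made 85 of the 58735 genes listed. Of these, 56 were kept, selected on measured counts, with 10 or more counts in at least 4 libraries. They were 27 collagen, 9 integrin alpha, 5 integrin beta and 8 laminin genes and 7 other matrix proteins. The fit across all genes tested 51 of the 56, while COL13A1, COL16A1, COL21A1, COL25A1 and COL6A2 were too low for it. Together the 56 genes held 0.161% to 0.177% of the counts in MARK3i libraries and 0.160% to 0.165% in control libraries.

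The limit on counts left out 29 genes, of which 23 reached 10 counts in no library. SPARC, a collagen-binding glycoprotein, had at most 1 count in any library. Just inside the limit, 7 genes reached 10 counts in exactly 4 libraries, among them COL13A1 with 10, 33, 18 and 15 counts in MARK3i replicates 1 to 4 and 2, 3, 1 and 4 in control replicates 1 to 4. No gene reached it in 3 libraries. Just outside, with 2 libraries, were LAMB4, with 5, 6, 7 and 6 counts in MARK3i and 12, 12, 2 and 7 in control libraries, and ITGB2, with 9, 21, 7 and 13 in MARK3i and 7, 2, 2 and 2 in control libraries. COL13A1 and ITGB6 passed through the MARK3i libraries, and LAMC3, COL4A6 and LUM through the control libraries, with at most 1 library of the other group reaching 10 counts. For those 5 genes the choice itself favours a difference between the groups.

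Laminins are trimers of an alpha, a beta and a gamma chain and, with collagen IV, nidogen, agrin and perlecan, build the basement membrane on which prostate epithelium rests. Fibronectin, tenascin-C and thrombospondin-1 are secreted glycoproteins of the looser, remodelled matrix. Integrins are heterodimers of 1 alpha and 1 beta subunit that span the cell membrane. They bind these ligands outside the cell and connect through talin, kindlin and paxillin to actin inside it.

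Promoter windows are shown for the genes on which the results turn, 4 with large changes and 2 that share a promoter region with an oppositely placed collagen IV gene. The sequences are from RefSeq on GRCh38.p14, run 5′ to 3′ on the gene's strand, and span 250 bases before to 50 after an annotated start. For LAMA3, LAMB3, TNC and FN1, capitals mark matches on either strand to TGANTCA (the AP-1 motif), TGACGTCA (the CRE motif) or GGGCGG (the GC box). For COL4A3 and COL4A5, capitals mark the bases between the gene model and that of its head-to-head neighbour, COL4A4 or COL4A6.
LAMA3 chr18:23872770-23873069 (plus strand): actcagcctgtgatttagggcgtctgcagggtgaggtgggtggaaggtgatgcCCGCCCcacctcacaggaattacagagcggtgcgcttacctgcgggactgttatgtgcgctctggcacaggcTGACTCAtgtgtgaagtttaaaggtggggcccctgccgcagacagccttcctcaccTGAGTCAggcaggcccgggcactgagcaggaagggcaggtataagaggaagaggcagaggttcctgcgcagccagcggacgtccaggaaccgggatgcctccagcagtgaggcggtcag
LAMB3 chr1:209651325-209651624 (minus strand): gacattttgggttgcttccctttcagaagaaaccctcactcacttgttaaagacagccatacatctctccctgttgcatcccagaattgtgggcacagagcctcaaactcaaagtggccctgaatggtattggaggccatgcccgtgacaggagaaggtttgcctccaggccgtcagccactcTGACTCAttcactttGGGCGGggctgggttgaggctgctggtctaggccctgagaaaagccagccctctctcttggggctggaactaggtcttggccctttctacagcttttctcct
TNC chr9:115118108-115118407 (minus strand): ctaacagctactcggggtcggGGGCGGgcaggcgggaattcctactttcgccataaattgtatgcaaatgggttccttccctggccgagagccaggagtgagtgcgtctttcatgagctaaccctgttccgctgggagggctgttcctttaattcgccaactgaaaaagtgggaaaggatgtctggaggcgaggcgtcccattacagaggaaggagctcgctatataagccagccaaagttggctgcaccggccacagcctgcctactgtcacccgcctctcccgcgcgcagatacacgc
FN1 chr2:215436019-215436318 (minus strand): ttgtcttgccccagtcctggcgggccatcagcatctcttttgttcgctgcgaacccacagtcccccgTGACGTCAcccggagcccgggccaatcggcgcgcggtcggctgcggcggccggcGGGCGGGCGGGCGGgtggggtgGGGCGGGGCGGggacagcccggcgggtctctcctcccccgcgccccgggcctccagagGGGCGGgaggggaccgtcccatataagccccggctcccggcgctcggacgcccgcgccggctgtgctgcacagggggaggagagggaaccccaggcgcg
COL4A3 chr2:227164374-227164673 (plus strand): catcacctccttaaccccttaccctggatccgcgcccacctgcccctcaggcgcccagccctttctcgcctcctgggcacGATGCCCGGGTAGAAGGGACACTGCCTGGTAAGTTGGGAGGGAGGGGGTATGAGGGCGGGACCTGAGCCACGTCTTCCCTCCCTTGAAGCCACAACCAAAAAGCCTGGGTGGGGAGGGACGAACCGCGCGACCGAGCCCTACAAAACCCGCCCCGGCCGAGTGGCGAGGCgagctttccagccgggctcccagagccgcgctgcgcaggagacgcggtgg
COL4A5 chrX:108439588-108439887 (plus strand): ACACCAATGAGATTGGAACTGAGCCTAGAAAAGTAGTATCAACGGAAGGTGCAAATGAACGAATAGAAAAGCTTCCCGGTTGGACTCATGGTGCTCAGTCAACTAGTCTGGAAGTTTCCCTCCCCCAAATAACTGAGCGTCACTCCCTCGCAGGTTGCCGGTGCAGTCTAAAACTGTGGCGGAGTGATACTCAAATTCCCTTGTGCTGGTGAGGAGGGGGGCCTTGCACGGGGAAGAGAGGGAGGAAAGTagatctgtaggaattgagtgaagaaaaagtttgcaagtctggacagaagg

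The LAMA3 and LAMB3 windows lie at internal annotated start sites, since all 300 of their bases lie within the GENCODE gene models. LAMA3 held TGACTCA from 125 to 119 and TGAGTCA from 69 to 63 bases before the start, and LAMB3 held TGACTCA from 67 to 61 bases before it. The LAMB3 window was chosen because it held TGANTCA, so that match was fixed by the choice. FN1 held TGACGTCA from 183 to 176 bases before the start and 6 matches to GGGCGG, of which some overlap. TNC held 1 match, to GGGCGG. Windows were matched for 41 of the 56 genes, 58 windows in all. Of the 58, TGANTCA occurred in 3 (5.17%), against 2707 of 35116 windows over the genome (7.71%). TGACGTCA occurred in 1 (1.72%), against 1.85% of all windows, and GGGCGG in 39 (67.2%), against 45.0% of all windows. The 58 windows belong to genes kept on measured counts, while the 35116 were taken without regard to level, so these sets are unlike. A match describes letters in a window and no binding was measured.

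The comparison of MARK3i with control libraries asked which transcripts differ in cells given this compound. Levels are CPM, counts divided by the library total over tested genes and put on the usual per-million scale, scaled by TMM factors, which correct for differences in library composition. Differences are log2 fold changes, MARK3i over control, with their standard error (SE), from edgeR's quasi-likelihood test. A gene was called when its Benjamini-Hochberg adjusted p over all 16452 tested genes was under 0.05. Of all tested genes, 58.0% were called, 29.8% higher and 28.3% lower. Of these calls 51.3% were higher, and 63.6% when libraries were scaled by total counts. Among the 51 matrix and integrin genes tested, 22 were called higher (43.1%), 18 lower (35.3%) and 11 did not pass. Their median log2 fold change was 0.21, against 0.02 over all tested genes. Without MARK3i replicate 3 the members gave 17 higher, 18 lower and a median log2 fold change of 0.11, and with offsets for transcript GC content the median log2 fold change of the members was 0.0887. Over all tested genes, 4551 were called higher and 4622 lower without that replicate. At an adjusted p under 0.01, 13 of the 51 members were higher and 16 lower, against 3898 and 3853 of all 16452 tested genes. Of those calls 44.8% were higher among the members and 50.3% over all genes. Called changes of at least 1 on the log2 scale were seen upward in 7 of the 51 (4.24% of all genes) and downward in 10 (6.09% of all genes). They include ITGB6 upward and LUM, COL4A6 and LAMC3 downward, for which the choice itself favours a difference. The libraries of the groups did not overlap for 16 genes that were higher in MARK3i and 17 that were lower, while 51.0% of all tested genes did not overlap. Because the genes were chosen with results of these data known, these counts describe the genes and test nothing. In bulk RNA, fewer cells that express a gene and less RNA of it per cell cannot be told apart.

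**Figure D1:**
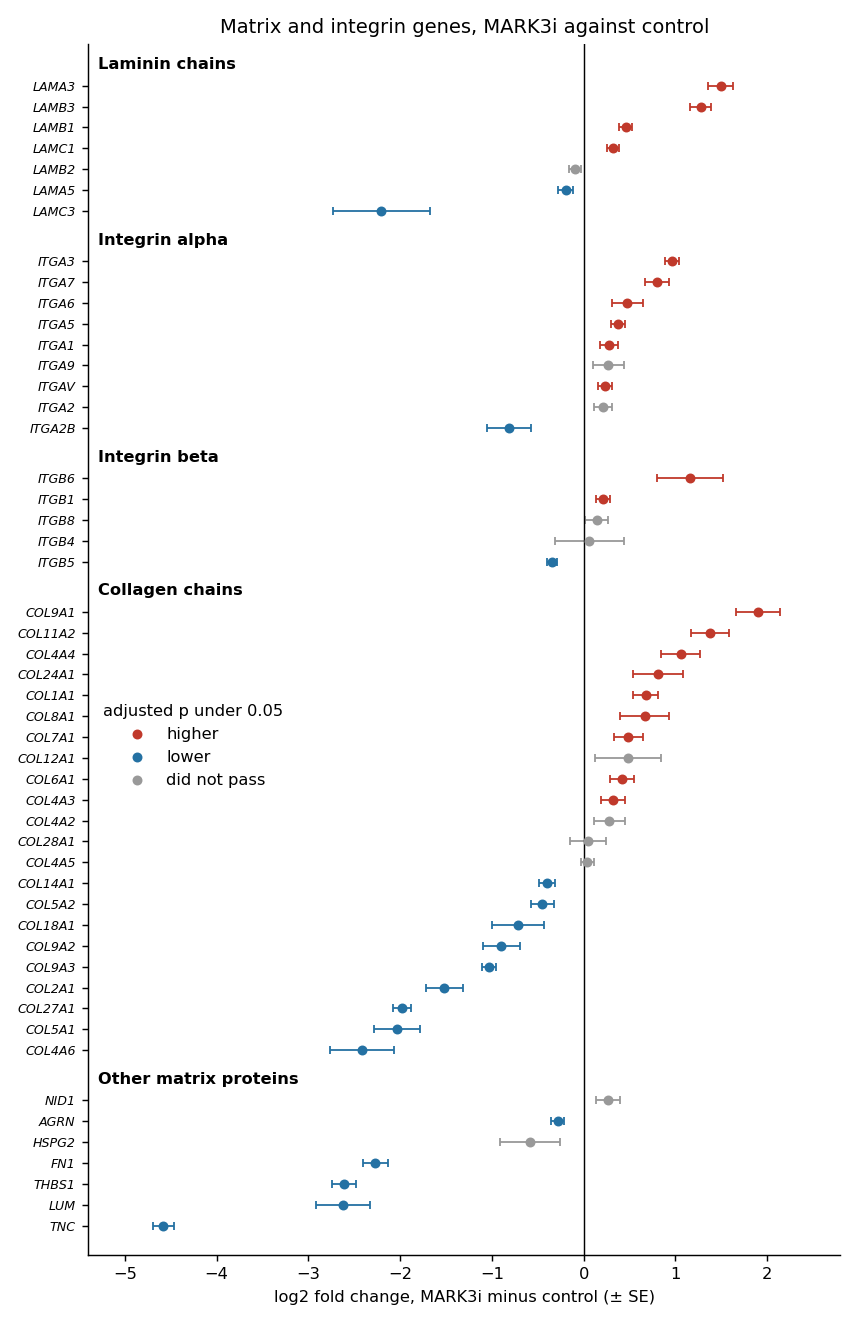
Log2 fold change, MARK3i over control, of the tested genes described here by protein group, with bars of 1 SE from edgeR's quasi-likelihood test and colour showing whether the adjusted p was under 0.05 and in which direction. Integrin alpha genes lie mostly right of 0, the laminins shown and the collagens lie on both sides, and TNC stands farthest left at −4.59.

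Depth and cell identity bear on all of these values. Total counts were 13517289 to 21271127 in MARK3i and 12672817 to 13386143 in control libraries, and the median SE was 0.135 for the 51 genes and 0.0957 for all tested genes. The 11 luminal prostate markers were all tested, and 10 were called lower in MARK3i libraries, while 28.3% of all tested genes were. The summed level of the 11 was 1850.0 to 1939 CPM in MARK3i libraries, against 3197 to 3322 CPM in control libraries. Each of the 5 basal markers stayed under 1 CPM in every library, with sums of 0.135 to 0.415 CPM in MARK3i and 0.820 to 0.936 CPM in control libraries. Of 10 fibroblast and smooth muscle markers, 7 stayed under 1 CPM, PDGFRA, FAP and PDPN had 0 counts in every library, and the sum was 8.37 to 9.81 CPM in MARK3i and 5.82 to 7.53 CPM in control libraries. Of 8 endothelial markers, 7 stayed under 1 CPM, PECAM1 and CDH5 had 0 counts, and sums were 0.349 to 1.04 CPM in MARK3i and 1.25 to 2.14 CPM in control libraries. Of 8 leukocyte markers, 7 stayed under 1 CPM, CD3E had 0 counts, and sums were 1.74 to 2.88 CPM in MARK3i and 1.95 to 2.21 CPM in control libraries. Of the 3 fibroblast and smooth muscle markers tested, 1 was called higher and 2 did not pass. The 1 endothelial marker tested was called lower (−1.57), the 1 leukocyte marker tested did not pass, and no basal marker was tested. The part of these shifts in the results below was not tested.

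LAMA3 and LAMB3, which encode an alpha and a beta chain of epithelial laminin, both rose in MARK3i libraries by more than 1 on the log2 scale. Epithelial laminin anchors cells to the basement membrane at hemidesmosomes. LAMA3 (ENSG00000053747, chr18:23689453-23956222, plus strand) measured 8.85, 10.4, 11.2 and 9.82 CPM in MARK3i replicates 1 to 4 and 3.92, 3.56, 3.12 and 3.67 CPM in control replicates 1 to 4. Every MARK3i library lay above every control library, and the log2 fold change was 1.495 ± 0.14 (SE, adjusted p = 1.43e-09). LAMB3 (ENSG00000196878, chr1:209614870-209652425, minus strand) measured 21.4, 21.8, 16.6 and 20.3 CPM in MARK3i and 8.22, 9.43, 6.81 and 8.66 CPM in control libraries. Its groups were likewise apart, with a log2 fold change of 1.28 ± 0.11 (adjusted p = 8.23e-10). Per kilobase of exon, LAMB3 was the higher of the pair. LAMB3 averaged 4.31 CPM per kb in MARK3i and 1.78 in control libraries. LAMA3 stood at 0.695 in MARK3i and 0.246 in control libraries.

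LAMC1, LAMB1, LAMB2 and LAMA5, chains of the more widely expressed laminins, changed less than LAMA3 and LAMB3, while LAMC3 had a larger fitted change, downward. LAMC1, the gamma chain of most laminin trimers, was the highest of the laminin genes per kilobase, at 24.1 CPM per kb in MARK3i and 19.3 in control libraries. It measured 227, 182, 216 and 190.5 CPM in MARK3i and 173, 173, 153 and 154 CPM in control libraries, groups that did not overlap, and rose by 0.32 ± 0.0684 on the log2 scale (adjusted p = 0.000325). LAMB1, its usual beta partner, measured 59.4, 55.3, 58.5 and 58.1 CPM in MARK3i and 43.5, 40.7, 39.0 and 44.9 CPM in control libraries. All 4 MARK3i values were higher, and the log2 fold change was 0.46 ± 0.0687 (adjusted p = 3.40e-06). DLD, on the opposite strand, shares 1.61% of LAMB1's exon length, and the sources used here do not state whether counting used strand. LAMB2, the alternative beta chain, measured 106, 126, 116 and 118 CPM in MARK3i and 122, 119.6, 131 and 126 CPM in control libraries. The groups overlapped and the gene did not pass, at −0.09 ± 0.0617 (adjusted p = 0.201), and its sign turned with total counts (0.0128) and with offsets for transcript GC content (0.0471). LAMA5, an alpha chain of mature epithelial basement membranes, measured 92.9, 132, 125 and 114 CPM in MARK3i and 125, 126, 145 and 136 CPM in control libraries. It was called lower at −0.20 ± 0.0831 (adjusted p = 0.0475) although the groups overlapped. That call ended without control replicate 3 (adjusted p = 0.142), control replicate 4 (0.0865), MARK3i replicate 1 (0.110) or MARK3i replicate 4 (0.0901). With total counts the change was −0.0897 and did not pass (adjusted p = 0.416), and the sign turned with GC offsets (0.0484). LAMC3, a gamma chain of restricted expression, measured 0.627, 0, 0.350 and 0.0691 CPM in MARK3i and 1.25, 1.19, 0.820 and 1.17 CPM in control libraries. MARK3i replicate 2 had 0 counts, all 4 were below the controls, and the fitted change was −2.21 ± 0.53 (adjusted p = 0.00104). Without MARK3i replicate 1 it was −3.15, and with limma-voom −2.86. LAMC3 passed the count limit through the control libraries, so the choice itself favours this difference.

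**Figure D2:**
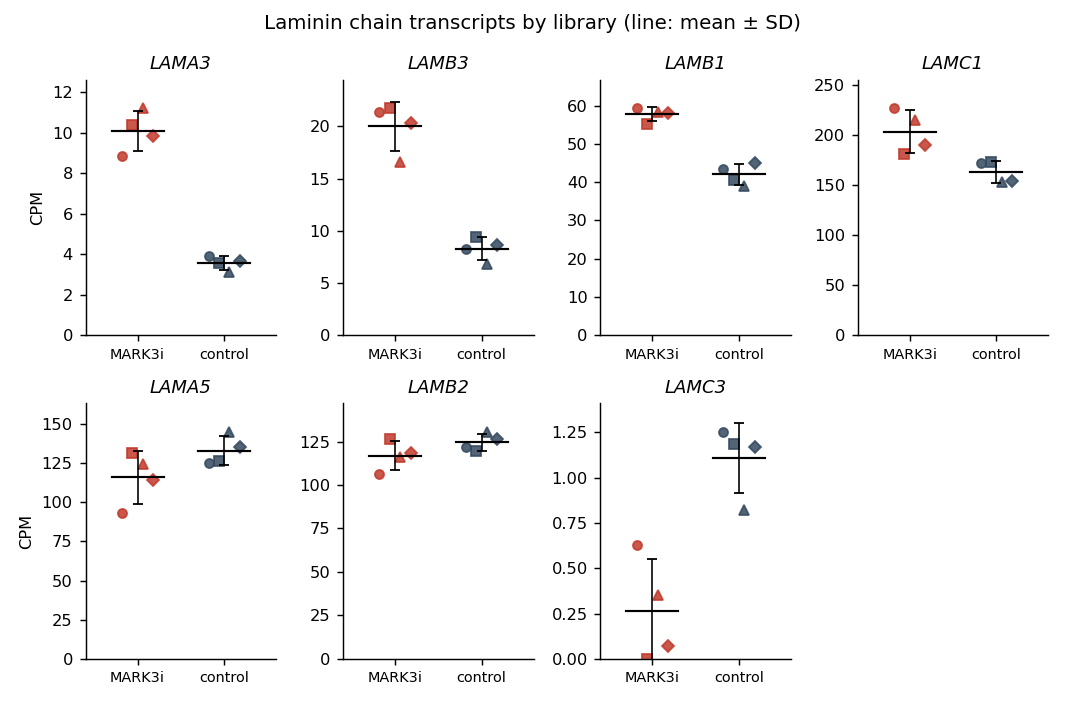
CPM of the laminin genes described here in each library, MARK3i left and control right, with marker shape for the replicate number, a line at the mean and bars of 1 SD, cut at 0. The groups are apart for LAMA3, LAMB3, LAMB1 and LAMC1 with MARK3i above, and for LAMC3 with MARK3i below, near 0.

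Of the 7 matrix protein genes kept outside the collagen and laminin families, 4 fell by more than 2 on the log2 scale in MARK3i libraries. LAMC3, COL4A6 and COL5A1 also fell by more than 2. TNC (ENSG00000041982, chr9:115019575-115118207, minus strand), tenascin-C, a glycoprotein of remodelling and tumour matrix, measured 4.18, 2.52, 3.15 and 2.77 CPM in MARK3i and 83.6, 75.5, 71.3 and 67.6 CPM in control libraries. Its highest MARK3i library was far below the lowest control library, and the level was 24.0-fold lower (log2 fold change −4.59 ± 0.12, adjusted p = 2.26e-20). No other gene of the 51 had so large a change in either direction. Per kilobase, TNC stood at 0.329 CPM per kb in MARK3i, under LAMA3, and at 7.77 in control libraries, above LAMB3. THBS1 (ENSG00000137801, chr15:39581079-39599466, plus strand), thrombospondin-1, which binds CD47 and integrins and activates latent TGF-beta, measured 3.76, 2.70, 3.64 and 3.80 CPM in MARK3i and 23.7, 22.3, 19.6 and 17.9 CPM in control libraries. The groups were apart, and the level was 6.10-fold lower (−2.61 ± 0.13, adjusted p = 1.44e-14). FN1 (ENSG00000115414, chr2:215360440-215436073, minus strand), fibronectin, the main ligand of the ITGA5 and ITGB1 dimer, measured 2.58, 3.64, 3.85 and 3.04 CPM in MARK3i and 18.1, 14.8, 14.6 and 16.5 CPM in control libraries. No MARK3i library came near a control library, and the level was 4.83-fold lower (−2.27 ± 0.14, adjusted p = 3.43e-13). LUM, lumican, a small leucine-rich proteoglycan that binds collagen fibrils, measured 0.697, 0.225, 0.560 and 0.553 CPM in MARK3i and 2.58, 3.01, 3.61 and 2.81 CPM in control libraries. All MARK3i libraries were under 1 CPM, with a log2 fold change of −2.62 ± 0.29 (adjusted p = 3.85e-08). LUM passed the count limit through the control libraries, so the choice itself favours this difference.

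The basement membrane linkers did not follow these glycoproteins in size. AGRN, agrin, a heparan sulfate proteoglycan that binds laminin, measured 128, 166, 154 and 154 CPM in MARK3i and 172, 181, 194 and 187 CPM in control libraries. The groups did not overlap and AGRN was called lower at −0.28 ± 0.0681 (adjusted p = 0.000960), a call that ended with GC offsets (adjusted p = 0.834). HSPG2, perlecan, averaged 1.05 ± 0.156 CPM in MARK3i and 1.59 ± 0.839 CPM in control libraries (SD, n = 4 each). It did not pass (−0.59 ± 0.33, adjusted p = 0.127), and was called lower without control replicate 4 (−0.86, adjusted p = 0.0170). NID1, nidogen-1, which joins laminin to collagen IV, averaged 10.3 ± 1.56 CPM in MARK3i and 8.58 ± 1.04 CPM in control libraries. It did not pass either (0.27 ± 0.13, adjusted p = 0.0777), and was called higher without control replicate 1 (adjusted p = 0.0476). With total counts (adjusted p = 0.0198) and with GC offsets (0.0401) NID1 was also called higher. Of the 7 genes in this class, 0 were called higher by edgeR and 5 lower (71.4%), with a median of −2.27. The 5 include LUM, which passed the count limit through the control libraries, so the choice itself favours its call. The class was set by name with results of these data known, so its share describes these genes and tests nothing. The shares over all tested genes were 29.8% higher and 28.3% lower. At an unadjusted p under 0.05 the count higher was 1, NID1, and with DESeq2 and with limma-voom it was 0.

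**Figure D3:**
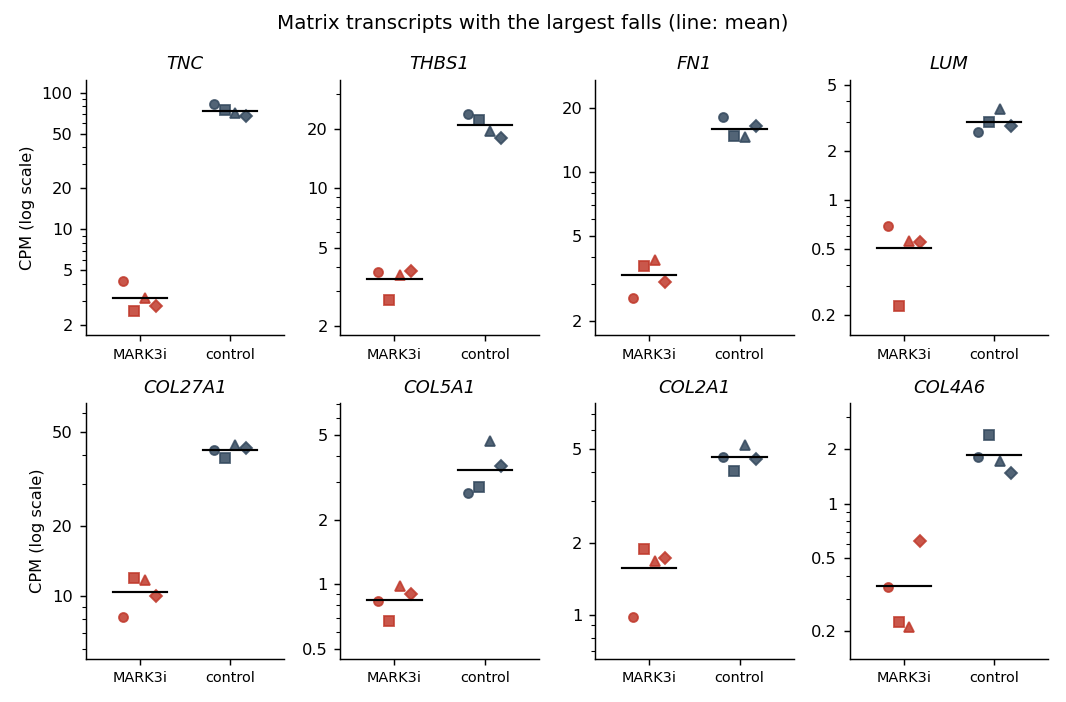
CPM on a log axis of 8 matrix genes with large falls, in each library, MARK3i left and control right, with marker shape for the replicate number and a line at the mean. In every panel the 4 MARK3i libraries sit below the 4 control libraries, and the gap is widest for TNC.

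Collagen genes moved in both directions. Of the 22 tested, 9 were called higher (40.9%), 9 lower (40.9%) and 4 missed the threshold. Their median was 0.16. COL4A6, among the 9 lower, passed the count limit through the control libraries, so the choice itself favours its call. Over all tested genes, 29.8% were called higher and 28.3% lower. Collagen IX, a fibril-associated collagen built of 3 different chains, was split. COL9A1 (ENSG00000112280, chr6:70216040-70303084, minus strand) measured 4.32, 3.33, 2.66 and 4.08 CPM in MARK3i and 1.02, 1.11, 0.902 and 0.780 CPM in control libraries, with the groups apart. It had the largest rise of the 51 genes, at 1.90 ± 0.24 (adjusted p = 2.60e-07). COL9A3 (ENSG00000092758, chr20:62816244-62841159, plus strand) measured 18.4, 19.9, 17.0 and 19.1 CPM in MARK3i and 35.3, 37.9, 39.1 and 40.5 CPM in control libraries. Here all MARK3i libraries were the lower ones, with a change of −1.03 ± 0.0805 (adjusted p = 5.97e-11). TCFL5, on the opposite strand, shares 3.20% of its exon length and did not pass the test. COL9A2 measured 2.02, 2.79, 1.68 and 1.87 CPM in MARK3i and 3.21, 4.36, 4.10 and 4.29 CPM in control libraries. It fell by 0.90 ± 0.20 (adjusted p = 0.000424), with no overlap, as COL9A3 did. Per kilobase, COL9A3 was the highest chain of the 3 in MARK3i (3.85 CPM per kb, against 0.496 for COL9A2 and 0.348 for COL9A1) and in control libraries (7.89, 0.947 and 0.0922).

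Collagen IV forms the network of the basement membrane, and its 6 genes lie in 3 head-to-head pairs. The start sites of COL4A4 and COL4A3 leave 170 bases between the gene models, and those of COL4A6 and COL4A5 leave 340, part of which are the capitals in the windows above. COL4A4 measured 5.44, 5.30, 7.71 and 4.01 CPM in MARK3i and 1.96, 2.06, 3.44 and 3.28 CPM in control libraries. All MARK3i libraries were higher, by 1.06 ± 0.21 (adjusted p = 0.000150). Its neighbour COL4A3 measured 8.99, 11.01, 10.5 and 12.0 CPM in MARK3i and 8.93, 9.66, 6.23 and 9.28 CPM in control libraries. The groups overlapped, and it was called higher at 0.32 ± 0.13 (adjusted p = 0.0433). The COL4A3 call ended without control replicate 1 (adjusted p = 0.0526), control replicate 3 (0.212), MARK3i replicate 2 (0.0803), MARK3i replicate 3 (0.0722) or MARK3i replicate 4 (0.127). It also ended with RLE size factors (0.0508), with no filter (0.0525) and with DESeq2 (0.0698), and MFF-DT on the opposite strand shares 6.82% of its exon length.

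The second pair differed between its members. COL4A6 measured 0.349, 0.225, 0.210 and 0.622 CPM in MARK3i and 1.80, 2.38, 1.72 and 1.48 CPM in control libraries, all lower in MARK3i, with a change of −2.41 ± 0.35 (adjusted p = 2.16e-06). COL4A6 passed the count limit through the control libraries, so the choice itself favours this difference. COL4A5, at 54.9, 56.4, 58.3 and 51.1 CPM in MARK3i and 55.2, 58.7, 49.9 and 51.3 CPM in control libraries, overlapped throughout and did not pass (0.04 ± 0.0706, adjusted p = 0.673). COL4A5 was the highest collagen IV gene per kilobase, at 4.65 CPM per kb in MARK3i and 4.53 in control libraries. In the third pair, COL4A2 measured 4.46, 3.60, 4.06 and 4.49 CPM in MARK3i and 3.13, 3.33, 3.53 and 3.59 CPM in control libraries. The lowest MARK3i value was just above the highest control value, and the gene did not pass (0.28 ± 0.17, adjusted p = 0.151), though it did with total counts (adjusted p = 0.0454) and with GC offsets (0.0241). COL4A1, whose chain forms the common collagen IV trimer with that of COL4A2, was not kept, with 0, 1, 0 and 0 counts in MARK3i and 0, 0, 1 and 0 in control libraries.

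**Figure D4:**
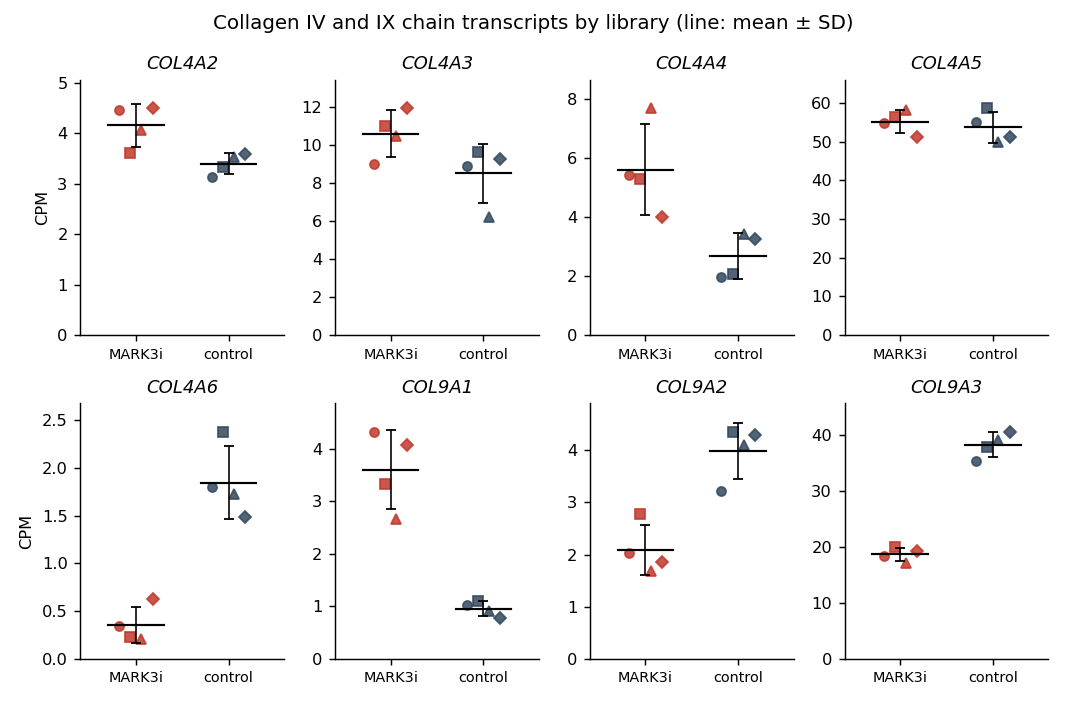
CPM of 5 collagen IV and 3 collagen IX genes in each library, MARK3i left and control right, with marker shape for the replicate number, a line at the mean and bars of 1 SD. COL4A4 and COL9A1 are higher in every MARK3i library, COL4A6, COL9A2 and COL9A3 lower in every one, and COL4A5 overlaps.

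Fibril-forming collagens were likewise divided. COL27A1, a fibrillar collagen of cartilage, measured 8.16, 12.0, 11.8 and 10.1 CPM in MARK3i and 41.8, 38.6, 43.95 and 42.6 CPM in control libraries. It was 3.94-fold lower with the groups far apart (−1.98 ± 0.10, adjusted p = 1.19e-14). COL5A1, which regulates fibril diameter, measured 0.837, 0.674, 0.981 and 0.899 CPM in MARK3i and 2.66, 2.85, 4.67 and 3.59 CPM in control libraries. All MARK3i values were under 1 CPM and all control values above 2 CPM, a change of −2.04 ± 0.25 (adjusted p = 2.16e-07). COL2A1, the major collagen of cartilage, measured 0.976, 1.89, 1.68 and 1.73 CPM in MARK3i and 4.62, 4.04, 5.17 and 4.53 CPM in control libraries. It fell by 1.52 ± 0.20 (adjusted p = 6.27e-07), without overlap. In the other direction, COL11A2, a partner of collagen II in cartilage fibrils, measured 3.97, 4.94, 3.36 and 4.70 CPM in MARK3i and 1.41, 1.505, 1.48 and 2.18 CPM in control libraries. Control replicate 4 was the highest control yet below all MARK3i libraries, and the change was 1.37 ± 0.21 (adjusted p = 3.78e-06). COL24A1, a fibrillar collagen, measured 2.02, 2.11, 1.40 and 1.94 CPM in MARK3i and 1.49, 0.634, 1.15 and 1.01 CPM in control libraries. The groups overlapped, the change was 0.81 ± 0.27 (adjusted p = 0.0139), and the call ended without control replicate 2 (adjusted p = 0.0674).

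Chains of collagens I and V lay on opposite sides. COL1A1, a chain of collagen I, averaged 18.0 ± 3.04 CPM in MARK3i and 11.3 ± 2.20 CPM in control libraries (SD, n = 4 each), with a rise of 0.68 ± 0.13 (adjusted p = 0.000158). COL1A2, which supplies the second chain of the usual collagen I trimer, was not kept, with 2, 0, 0 and 0 counts in MARK3i and 0, 0, 1 and 0 in control libraries. COL5A2, the partner chain of COL5A1, averaged 8.34 ± 1.33 CPM in MARK3i and 11.5 ± 0.940 CPM in control libraries and fell by 0.45 ± 0.12 (adjusted p = 0.00303).

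The remaining tested collagens changed by less than 1 on the log2 scale. COL7A1, the anchoring fibril collagen that binds epithelial laminin, averaged 53.8 ± 12.2 CPM in MARK3i and 38.6 ± 4.88 CPM in control libraries and was called higher (0.49 ± 0.15, adjusted p = 0.0189). That call ended without control replicate 1 (adjusted p = 0.0595) or MARK3i replicate 4 (0.0501). COL6A1, a chain of the beaded filament collagen VI, averaged 10.5 ± 2.02 CPM in MARK3i and 7.86 ± 0.644 CPM in control libraries and was called higher (0.42 ± 0.14, adjusted p = 0.0101). Of its partner chains, COL6A2 was too low for the fit and COL6A3 was not kept. COL8A1, a short-chain network collagen, averaged 1.42 ± 0.0785 CPM in MARK3i and 0.893 ± 0.0363 CPM in control libraries. It was called higher (0.66 ± 0.27, adjusted p = 0.0380), but in each of the 8 fits that left out a library the adjusted p was between 0.0510 (without MARK3i replicate 4) and 0.0830 (without MARK3i replicate 2). The COL8A1 call also ended with no filter (adjusted p = 0.131), DESeq2 (0.110), GC offsets (0.0535), the replicate block (0.0628) and both of these together (0.0802). COL14A1, a fibril-associated collagen, averaged 21.0 ± 2.47 CPM in MARK3i and 27.5 ± 0.972 CPM in control libraries and fell by 0.40 ± 0.0886 (adjusted p = 0.000429). COL18A1, the basement membrane collagen that carries endostatin, averaged 0.844 ± 0.166 CPM in MARK3i and 1.43 ± 0.250 CPM in control libraries and was called lower (−0.72 ± 0.28, adjusted p = 0.0332). SLC19A1, on the opposite strand, shares 18.5% of the COL18A1 exon length and was itself lower, at 9.40 CPM in MARK3i and 42.7 CPM in control libraries, and its part in the COL18A1 value was not tested. The COL18A1 call ended without control replicate 1 (adjusted p = 0.0906), control replicate 4 (0.0900) or MARK3i replicates 1 (0.0700), 3 (0.0618) or 4 (0.0634), as well as with total counts, no filter, DESeq2 and GC offsets. COL12A1 (0.48 ± 0.36, adjusted p = 0.263) and COL28A1 (0.05 ± 0.20, adjusted p = 0.861) did not pass, and COL12A1 was called higher without control replicate 1 (0.98, adjusted p = 0.0282).

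The 5 collagens kept by the count limit but not tested have no fold change, and their levels are given as values only. COL13A1, a transmembrane collagen, averaged 1.120 ± 0.335 CPM in MARK3i and 0.197 ± 0.0996 CPM in control libraries (SD, n = 4 each). COL25A1, another transmembrane collagen, averaged 0.472 ± 0.0869 CPM in MARK3i and 1.03 ± 0.228 CPM in control libraries. COL6A2 averaged 0.734 ± 0.245 CPM in MARK3i and 0.435 ± 0.306 CPM in control libraries. The fibril-associated COL16A1 averaged 0.537 ± 0.125 CPM in MARK3i and 0.690 ± 0.244 CPM in control libraries, and COL21A1 averaged 0.644 ± 0.304 CPM in MARK3i and 0.613 ± 0.157 CPM in control libraries.

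Of the 9 integrin alpha genes tested, 6 were called higher (66.7%), 1 lower (11.1%) and 2 missed the threshold. Their median was 0.27. Over all tested genes, 29.8% were called higher and 28.3% lower. The calls of ITGA3, ITGA5 and ITGA7 held under every alternative, while those of ITGA1, ITGA6 and ITGAV ended with GC offsets. ITGA3 (ENSG00000005884, chr17:50055968-50090481, plus strand), whose product pairs with ITGB1 as a receptor for laminins that hold the LAMA3 or LAMA5 chain, measured 54.3, 59.1, 51.3 and 58.2 CPM in MARK3i and 25.9, 26.9, 31.9 and 29.9 CPM in control libraries. The groups were far apart and the change was the largest of the alpha genes, at 0.96 ± 0.0787 (adjusted p = 1.45e-10). ITGA7, another laminin receptor subunit, measured 11.2, 15.5, 16.8 and 13.8 CPM in MARK3i and 9.55, 6.97, 9.02 and 7.33 CPM in control libraries. All MARK3i values were higher, with a change of 0.80 ± 0.13 (adjusted p = 1.18e-05). BLOC1S1 shares 1.31% of its exon length and METTL7B 0.485%, both on the opposite strand, and METTL7B was also higher. ITGA6, the partner of ITGB4 in hemidesmosomes, measured 5.79, 5.17, 4.13 and 5.12 CPM in MARK3i and 2.66, 3.88, 4.10 and 3.90 CPM in control libraries. The lowest MARK3i value was just above the highest control value, and the change was 0.48 ± 0.17 (adjusted p = 0.0195). The ITGA6 call ended without control replicate 1 (adjusted p = 0.0948), without MARK3i replicate 1 (0.0669) and with GC offsets (0.0524).

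The fibronectin receptor subunits changed by less. ITGA5 measured 24.1, 26.0, 25.8 and 25.4 CPM in MARK3i and 19.5, 19.0, 19.8 and 19.8 CPM in control libraries. It rose with no overlap, by 0.37 ± 0.0796 (adjusted p = 0.000277), in the libraries in which its ligand FN1 was lower. ITGAV, which pairs with several beta subunits to bind fibronectin, vitronectin and latent TGF-beta, measured 90.0, 80.2, 102 and 77.1 CPM in MARK3i and 78.9, 79.1, 71.3 and 67.6 CPM in control libraries. The groups overlapped, and the called change was 0.23 ± 0.0785 (adjusted p = 0.0146). That call ended without control replicate 4 (adjusted p = 0.0669), without MARK3i replicate 3 (0.111) and with GC offsets (0.358).

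Among the collagen-binding and other alpha subunits, ITGA2 measured 36.7, 27.6, 39.4 and 29.5 CPM in MARK3i and 30.3, 30.5, 25.1 and 28.6 CPM in control libraries. The groups overlapped and it did not pass (0.21 ± 0.10, adjusted p = 0.0795), though it did without MARK3i replicate 2 (adjusted p = 0.00894), without MARK3i replicate 4 (0.0385) and with total counts (0.0130). ITGA1, also a collagen receptor subunit, averaged 28.4 ± 2.71 CPM in MARK3i and 23.4 ± 3.55 CPM in control libraries and was called higher (0.27 ± 0.10, adjusted p = 0.0195). PELO, on the same strand, shares 2.69% of the ITGA1 exon length and was lower. The ITGA1 call ended without control replicate 3 (adjusted p = 0.0836), control replicate 4 (0.0965), MARK3i replicate 1 (0.05001) or MARK3i replicate 3 (0.0945), and with GC offsets (0.135). ITGA9, a receptor subunit for tenascin-C, averaged 4.07 ± 0.567 CPM in MARK3i and 3.39 ± 0.0956 CPM in control libraries and did not pass (0.27 ± 0.17, adjusted p = 0.180). ITGA9-AS1, on the opposite strand, shares 9.23% of its exon length and was lower. ITGA2B, the alpha subunit of the platelet fibrinogen receptor, was the alpha gene called lower, at 1.52 ± 0.136 CPM in MARK3i and 2.65 ± 0.834 CPM in control libraries (−0.81 ± 0.24, adjusted p = 0.00549). Without control replicate 4, its highest library, the change was −0.57 and did not pass (adjusted p = 0.0551).

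Of the 5 integrin beta genes, 2 were called higher (40%), 1 lower (20%) and 2 did not pass, against 29.8% higher and 28.3% lower over all tested genes. The 2 higher include ITGB6, which passed the count limit through the MARK3i libraries, so the choice itself favours its call. ITGB5, which pairs with ITGAV to bind vitronectin, was the highest of the 56 genes per kilobase, at 29.2 CPM per kb in MARK3i and 37.2 in control libraries. It measured 196, 186, 179.8 and 199 CPM in MARK3i and 236, 240.1, 250.1 and 243 CPM in control libraries. The groups were apart with little spread in either, and ITGB5 fell by 0.35 ± 0.0544 on the log2 scale (adjusted p = 6.06e-06). ITGB1, the shared partner of most alpha subunits named here, measured 244, 202, 238 and 202 CPM in MARK3i and 214, 199.6, 179.7 and 172 CPM in control libraries. The groups overlapped, and the called change was 0.21 ± 0.0735 (adjusted p = 0.0170). The ITGB1 call ended without control replicate 3 (adjusted p = 0.0664), control replicate 4 (0.0816), MARK3i replicate 1 (0.0891) or MARK3i replicate 3 (0.0800), and with GC offsets (0.177).

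The other beta subunits were low. ITGB6, an epithelial subunit that pairs with ITGAV and activates latent TGF-beta, measured 1.32, 1.03, 0.981 and 0.968 CPM in MARK3i and 0.313, 0.475, 0.328 and 0.780 CPM in control libraries. It rose by 1.16 ± 0.36 (adjusted p = 0.00755) with all MARK3i libraries above the controls. ITGB6 passed the count limit through the MARK3i libraries, so the choice itself favours this difference. ITGB8, a further partner of ITGAV, averaged 8.84 ± 1.17 CPM in MARK3i and 7.98 ± 0.734 CPM in control libraries and did not pass (0.14 ± 0.13, adjusted p = 0.342). ITGB4, the hemidesmosome subunit that binds epithelial laminin, measured 0.558, 0.674, 1.75 and 2.07 CPM in MARK3i and 1.10, 0.713, 1.23 and 1.64 CPM in control libraries. Its libraries were mixed, and it did not pass (0.06 ± 0.38, adjusted p = 0.904), with a sign that turned in 3 of the fits that left out a library.

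**Figure D5:**
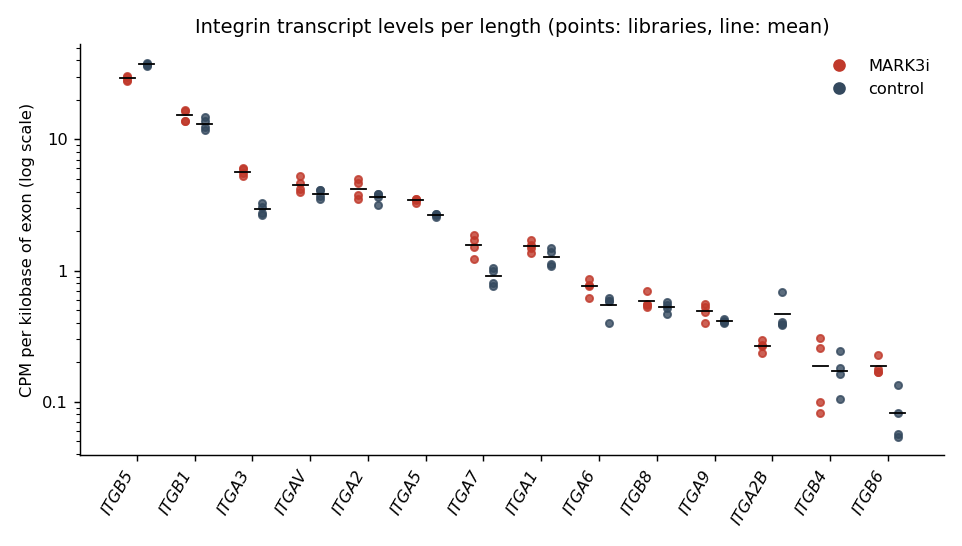
Mean CPM per kilobase of exon, on a log axis, of the 14 integrin genes, with points for the libraries, MARK3i left of control for each gene. ITGB5 and ITGB1 stand highest, and ITGA3 has the widest gap between groups on this scale among the genes above 1 CPM per kb.

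In order of level per kilobase, the highest genes of the 56 in MARK3i libraries were ITGB5 (29.2), LAMC1 (24.1), LAMB2 (17.0), ITGB1 (15.2) and AGRN (13.98 CPM per kb). In control libraries the same 5 genes stood at 37.2, 19.3, 18.2, 13.1 and 17.0 CPM per kb. Laminin chains and agrin were thus the highest matrix genes, while FN1 stood at 0.191 in MARK3i and 0.929 CPM per kb in control libraries.

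Genes that act with this group were counted from 5 lists written from general knowledge. Each count stands beside 29.8% called higher and 28.3% called lower over all tested genes, and describes its list only. The adhesion plaque, which connects integrins to actin, had 43 tested genes, of which 11 were called higher, 19 lower and 13 missed the threshold. Their median was −0.15. TLN2, a talin that activates integrins, averaged 4.80 ± 0.768 CPM in MARK3i and 1.55 ± 0.168 CPM in control libraries (SD, n = 4 each) and rose by 1.62 ± 0.20 (adjusted p = 1.37e-07). FERMT1, the epithelial kindlin, averaged 8.66 ± 0.917 CPM in MARK3i and 22.9 ± 1.01 CPM in control libraries, a change of −1.40 ± 0.10 (adjusted p = 9.06e-12). The actin crosslinker FLNA averaged 124 ± 2.25 CPM in MARK3i and 218 ± 1.64 CPM in control libraries (−0.81 ± 0.0527, adjusted p = 1.94e-12), and PARVB, which binds integrin-linked kinase, averaged 29.7 ± 0.895 CPM in MARK3i and 59.6 ± 1.92 CPM in control libraries (−1.004 ± 0.0681, adjusted p = 4.17e-12). The kinase gene PTK2B was lower (−0.48), while the adaptors CRK (0.48) and NEDD9 (0.74) and the exchange factor ARHGEF7 (0.44) were higher.

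Genes of collagen folding, processing and crosslinking were 29, with 10 called higher, 14 lower and 5 that did not pass, and a median of −0.23. The shares over all tested genes were 29.8% higher and 28.3% lower. The prolyl 4-hydroxylase subunits P4HA1 and P4HA2, which stabilise the collagen helix, rose by 0.69 ± 0.0728 (adjusted p = 1.44e-08) and 1.32 ± 0.13 (adjusted p = 3.55e-09). P4HA2 averaged 14.1 ± 1.92 CPM in MARK3i and 5.66 ± 0.766 CPM in control libraries. The prolyl 3-hydroxylase P3H2 (1.59) and the crosslinking lysyl oxidase LOXL2 (0.81) were also higher. P3H2 had 7, 5, 12 and 4 counts in control libraries, so it entered the test through the MARK3i libraries, which favours its difference. FKBP10, a collagen chaperone, averaged 81.2 ± 2.15 CPM in MARK3i and 199 ± 13.1 CPM in control libraries and fell by 1.30 ± 0.0600 (adjusted p = 2.73e-15). TGM2, a transglutaminase that crosslinks fibronectin, averaged 0.162 ± 0.0814 CPM in MARK3i and 3.04 ± 0.491 CPM in control libraries, a change of −4.23 ± 0.35 (adjusted p = 1.67e-10). TGM2 had 4, 2, 2 and 2 counts in MARK3i and 41, 44, 38 and 30 in control libraries. It entered the test through the control libraries, which favours this difference, and the fold rests on few counts. LOXL3 (−1.70) and the lysyl hydroxylase PLOD3 (−0.67) were lower as well.

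Matrix proteases and their inhibitors showed 9 called higher, 7 lower and 11 not passing among 27 tested, with a median of −0.055. Over all tested genes, 29.8% were called higher and 28.3% lower. TIMP2, an inhibitor of matrix metalloproteinases, averaged 4.84 ± 1.09 CPM in MARK3i and 0.734 ± 0.258 CPM in control libraries and rose by 2.71 ± 0.25 (adjusted p = 1.82e-09). TIMP2 had 14, 7, 9 and 7 counts in control libraries, so it entered the test through the MARK3i libraries, which favours its difference. RECK, a membrane-anchored inhibitor, averaged 9.13 ± 0.914 CPM in MARK3i and 4.41 ± 0.405 CPM in control libraries (1.05 ± 0.14, adjusted p = 3.69e-07). SERPINE2 (1.16), a serine protease inhibitor, and ADAM9 (0.38) were higher. TIMP1 (−0.36), ADAM15 (−0.62), ADAMTS7 (−1.58) and the urokinase receptor PLAUR (−1.18) were lower. ADAMTS7 had 7, 8, 8 and 3 counts in MARK3i libraries, so it entered the test through the control libraries, which favours its difference.

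Other matrix proteins outside the symbol patterns, 34 tested, had 6 called higher, 14 lower and 14 not passing, with a median of −0.33. The shares over all tested genes were 29.8% higher and 28.3% lower. CCN2, a matricellular protein induced by TGF-beta and YAP, averaged 10.9 ± 0.592 CPM in MARK3i and 35.8 ± 2.51 CPM in control libraries and fell by 1.72 ± 0.0871 (adjusted p = 1.57e-14). SMOC1, a SPARC-related protein, averaged 1.26 ± 0.363 CPM in MARK3i and 8.25 ± 0.678 CPM in control libraries (−2.69 ± 0.19, adjusted p = 5.62e-12). FBLN1 (−1.35) and RELN (−2.19) were lower too. MATN2, a filament-forming matrilin, averaged 7.78 ± 1.17 CPM in MARK3i and 1.89 ± 0.521 CPM in control libraries and rose by 2.051 ± 0.19 (adjusted p = 1.03e-09). LTBP1 (1.08), which stores latent TGF-beta in the matrix, the basement membrane protein FREM2 (1.29) and TNXB (0.92), a tenascin in another gene from TNC, were higher.

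Matrix receptors other than the integrins kept by the rule were 27 tested genes, with 8 called higher, 13 lower and 6 not passing, and a median of −0.16. Over all tested genes, 29.8% were called higher and 28.3% lower. BCAM, a receptor for the LAMA5 chain, averaged 66.5 ± 5.72 CPM in MARK3i and 139.5 ± 12.5 CPM in control libraries and fell by 1.07 ± 0.0718 (adjusted p = 3.93e-12). The hyaluronan receptor CD44 averaged 44.2 ± 1.94 CPM in MARK3i and 95.9 ± 2.31 CPM in control libraries (−1.118 ± 0.0628, adjusted p = 1.07e-13). CD151, the tetraspanin that binds the ITGA3 and ITGB1 dimer, was lower (−0.79 ± 0.0598, adjusted p = 3.41e-11) in the libraries in which ITGA3 was higher. Of the syndecans, SDC2 fell (−1.75 ± 0.0743, adjusted p = 4.80e-16) and SDC4 rose (0.74 ± 0.0669, adjusted p = 8.65e-10). CD47, the receptor of thrombospondin-1, was higher (0.57 ± 0.0718, adjusted p = 2.59e-07), as were GPC5 (1.61) and the leukocyte integrin subunit gene ITGAL (0.71), whose groups overlapped. GPC5 had 7, 6, 3 and 8 counts in control libraries, so it entered the test through the MARK3i libraries, which favours its difference.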

How the data were processed

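RNA of 22Rv1 cells was sequenced in 4 MARK3i and 4 control libraries on an Illumina NovaSeq, per the series text. The deposited files hold a whole-number count for each gene, made by the authors from reads aligned to hg38 with featureCounts, per the submitters' processing notes, which also name DESeq2. The sources used here do not name the aligner, annotation, strand setting, versions or library kit. Symbols, coordinates and merged exon lengths came from GENCODE release 44, which holds 58207 of the 58735 identifiers. The other 528, with no more than 0.0979% of any library, were tested too.

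Counts were fitted with edgeR 4.0.16 in R 4.3.3: filterByExpr on the group, TMM factors (1.011 to 1.059 in MARK3i, 0.9598 to 0.9682 in control libraries), glmQLFit with robust dispersion and glmQLFTest on the group alone, with Benjamini-Hochberg adjustment over 16452 genes. What edgeR terms the biological coefficient of variation was 7.2%, a spread between libraries that may be technical. The SE is the absolute log2 fold change divided by the square root of F. The procedure was tested on simulated data. Every pair of libraries differed by more than sampling noise (chi-square per degree of freedom 1.686 to 9.923 within and 35.65 to 48.75 between groups).

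Members, lists and tests were chosen with earlier results of these data known. Values in every library are given for 12 genes set by name (TNC, FN1, THBS1, COL4A2, LAMA5, LAMB1, LAMC1, ITGB1, ITGAV, ITGA2, ITGA6 and ITGB4), the 10 largest called changes in each direction, the 3 highest genes per kilobase and a few others. From each list, up to 4 called genes per direction with the smallest p are named. Some results that the counts include are not reported here. Alternatives were RLE and total-count scaling, no filter, a filter of 1 CPM in at least 4 libraries, DESeq2 1.42.0, limma-voom (limma 3.58.1), the replicate number as a block, offsets for GC content of transcripts (available for 99.4% of the genes) with and without that block, an adjusted p under 0.01, and each library left out in turn.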

Additional observations from a re-analysis of the deposited data

Results flagged for a closer look

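In 7 of the 112 groups of 4 libraries examined over the 56 genes, 1 library stood apart, its gap to the nearest of the others taking a large share of the group's range. Chance alone flags about 1 in 20 such groups. In MARK3i libraries, THBS1 was lowest in replicate 2, at 2.70 CPM against 3.64 to 3.80 CPM in the others (gap over range 0.855). COL5A2 was lowest in MARK3i replicate 4, at 6.36 CPM against 8.78 to 9.18 CPM (0.860). ITGB8 was highest in MARK3i replicate 3, at 10.6 CPM against 8.02 to 8.44 CPM (0.838). In control libraries, ITGA2B was highest in replicate 4, at 3.90 CPM against 2.19 to 2.30 CPM (0.940), and COL11A2 was highest there too, at 2.18 CPM against 1.41 to 1.505 CPM (0.877). ITGA6 was lowest in control replicate 1, at 2.66 CPM against 3.88 to 4.10 CPM (0.848). COL16A1, which was not tested, was lowest in control replicate 3, at 0.328 CPM against 0.783 to 0.858 CPM (0.858).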

How the results depend on the processing

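Apart from the stricter threshold, 14 of the 22 genes called higher and 14 of the 18 called lower kept their call and direction under every alternative run, and 2 of the 11 that did not pass stayed so. The filter of 1 CPM tested 49 of the 51. At an adjusted p under 0.01 13 genes were higher, against 22, and 16 lower, against 18. All tested genes then gave 3898 higher, against 4897, and 3853 lower, against 4652. Leaving 1 library out gave 17 to 21 higher and 16 to 19 lower, and over all tested genes 4489 to 4757 higher and 4378 to 4766 lower. The median log2 fold change of the members was 0.0887 with GC offsets and 0.0850 with GC offsets and the replicate block, against 0.21, and 0.11 (without MARK3i replicate 3) to 0.26 when 1 library was left out. With total counts the median of all tested genes was 0.13 in place of 0.02, and 63.6% of calls over all genes were higher, against 51.3%, while the genes here gave 25 higher and 16 lower. Signs turned as follows, and the cause was not tested. LAMB2 was 0.0128 with total counts, 0.0471 with GC offsets and 0.0467 with GC offsets and the replicate block. LAMA5 was 0.0484 with GC offsets and 0.0431 with the block added. ITGB4 was −0.12 with limma-voom and −0.28 to 0.32 when 1 library was left out. Leaving 1 out gave −0.0484 to 0.19 for COL28A1 and −0.0005 to 0.0794 for COL4A5.

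With the replicate block the counts were 21 higher and 18 lower, beside 4912 higher and 4684 lower over all tested genes. COL8A1 lost its call (adjusted p = 0.0628) and no other call changed. Deviations of libraries with the same number had correlations of mixed sign (0.131, −0.0875, −0.0533 and 0.0838), so the numbers gave no consistent pairing. Correlations were 0.027 to 0.131 between MARK3i replicates 1 and 3 and control replicates 1 and 2. They were 0.0838 to 0.129 between MARK3i replicates 2 and 4 and control replicates 3 and 4, and negative for all other combinations. Control replicates 1 and 2 (chi-square per degree of freedom 1.739) and 3 and 4 (1.686) were also closest. This grouping was not modelled and its cause was not tested. At these depths genes near 1 CPM, such as LAMC3, COL4A6, ITGB6 and LUM, rest on few counts.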

Other observations

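Some of these genes lie next to each other. ITGA3 and COL1A1 lie 93619 bases apart on chromosome 17, on opposite strands, with 0.96 and 0.68. ITGA1 and ITGA2 lie 30130 bases apart on chromosome 5, on the same strand, with 0.27, called, and 0.21, not passing. Differences within pairs were not tested.

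Transcript GC content ranged from 33.5% to 67.9% over the 51 genes. Across them the log2 fold change had a Spearman rho of −0.152 with GC content, and −0.194 across 16360 tested genes. Genes are not independent replicates, and the values describe these libraries.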
